A study of Chlorocebus aethiops with 12 samples.

Results

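The metallothioneins were followed in COS-1 cells, a kidney line of the African green monkey, that carried a mutant glucocorticoid receptor and were given dexamethasone or its vehicle. The members are 10 human transcript records, and every array probe that the scanner files assign to 1 of them was taken, whatever its values. The records are NM_005946 (MT1A), NM_005947 (MT1B), NM_175617 (MT1E), NM_005949 (MT1F), NM_005950 (MT1G), NM_005951 (MT1H), NM_176870 (MT1M), NM_005952 (MT1X), NM_005953 (MT2A) and NM_005954 (MT3). They are 10 of the 32379 transcript records on the array and have 15 of its 41000 probes. MT2A has 3 probes, MT1G, MT1X and MT3 have 2 each, and the other 6 members have 1, and each of the 15 is a single spot. The probes were designed on human sequence, and these genes are so alike that a probe can also bind the transcript of a close paralogue. A probe is therefore named by its record, and its level was compared only with its own level in another group.

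All cells had been transiently transfected with V5-tagged mouse CCRP (mCCRP-V5), which assists the folding and transport of nuclear receptors, together with FLAG-tagged human glucocorticoid receptor (FLAG-hGR). The receptor bore glutamate (Y30E) or phenylalanine (Y30F) in place of a tyrosine. Treatment began 40 h later and lasted 6 h, with 100 nM of the synthetic glucocorticoid dexamethasone (DEX) or with 0.1% DMSO as its vehicle. The 4 groups, with 3 arrays each, were Y30E-DEX, Y30E-DMSO, Y30F-DEX and Y30F-DMSO. The title of the series speaks of receptors with and without an N/C interaction, that is, contact between the amino- and carboxy-terminal ends, and which mutant stands for which is not given in the sources used here. There was no group without a transfected receptor or with an unmutated one among the samples used here. Nothing in the labels says that the 3 replicates of a group were separate cultures, and p-values therefore reflect array-to-array spread that may be technical. The RNA came from whole cultures, in which more responding cells and more transcript per cell cannot be told apart.

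Metallothioneins are small cysteine-rich proteins that bind zinc and copper and can take up cadmium. Many of their genes are switched on by the zinc-sensing factor MTF1 through metal response elements, and the human MT2A gene is also a classical target of the glucocorticoid receptor. MT2A and most MT1 genes are active in many tissues, kidney and liver among them, and the MT1 genes arose by tandem duplication. MT3, the growth inhibitory factor, is known mainly from brain.

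The share of spots well above background was 60.5% to 67.0% per array, and 0 spots were saturated. Precision was limited by the number of arrays: over all 25570 probes tested, the dexamethasone effect in either receptor had a median standard error (SE) of 0.08 (log2). Of the 15 metallothionein probes, 14 met the filter (well above background on every array of 1 group or more) and 13 of these were well above background on all 12 arrays. The exceptions were MT1F, which was not tested, and the MT3 probe A_23_P315273, which met the filter through the Y30E-DEX arrays alone. All levels below are log2 signal minus the array's 75th percentile, and all adjusted p-values are from limma with Benjamini-Hochberg adjustment over the 25570 probes and a threshold of 0.05.

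Dexamethasone raised most of the metallothionein probes with either receptor, and lowered none past the threshold. With Y30E, 9 of the 14 tested probes rose, which belong to MT1A, MT1B, MT1G, MT1H, MT1X and MT2A. Of all probes tested, 1.39% rose in that comparison. With Y30F, 8 of 14 rose, from MT1B, MT1G, MT1H, MT1X and MT2A, against 1.27% of all probes. The median effect over the 14 probes was 0.55 (log2) with Y30E, where the median over all probes was -0.0053. With Y30F the medians were 0.48 for the 14 probes and 0.019 for all probes. The medians of the 14 include the dim MT3 probe A_23_P315273, which met the filter through the Y30E-DEX arrays alone. Averaged over both receptors, 10 of 14 rose, the tenth being MT1E, against 2.51% of all probes. These 10 are called the induced probes below. Every Y30E-DEX array lay above every Y30E-DMSO array for 10 of 14 probes (10.5% of all probes), and every Y30F-DEX array above every Y30F-DMSO array for 12 of 14 (9.60% of all). Over both receptors, all 6 DEX arrays lay above all 6 DMSO arrays for 10 of 14, which are the induced probes (2.39% of all).

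**Figure D1:**
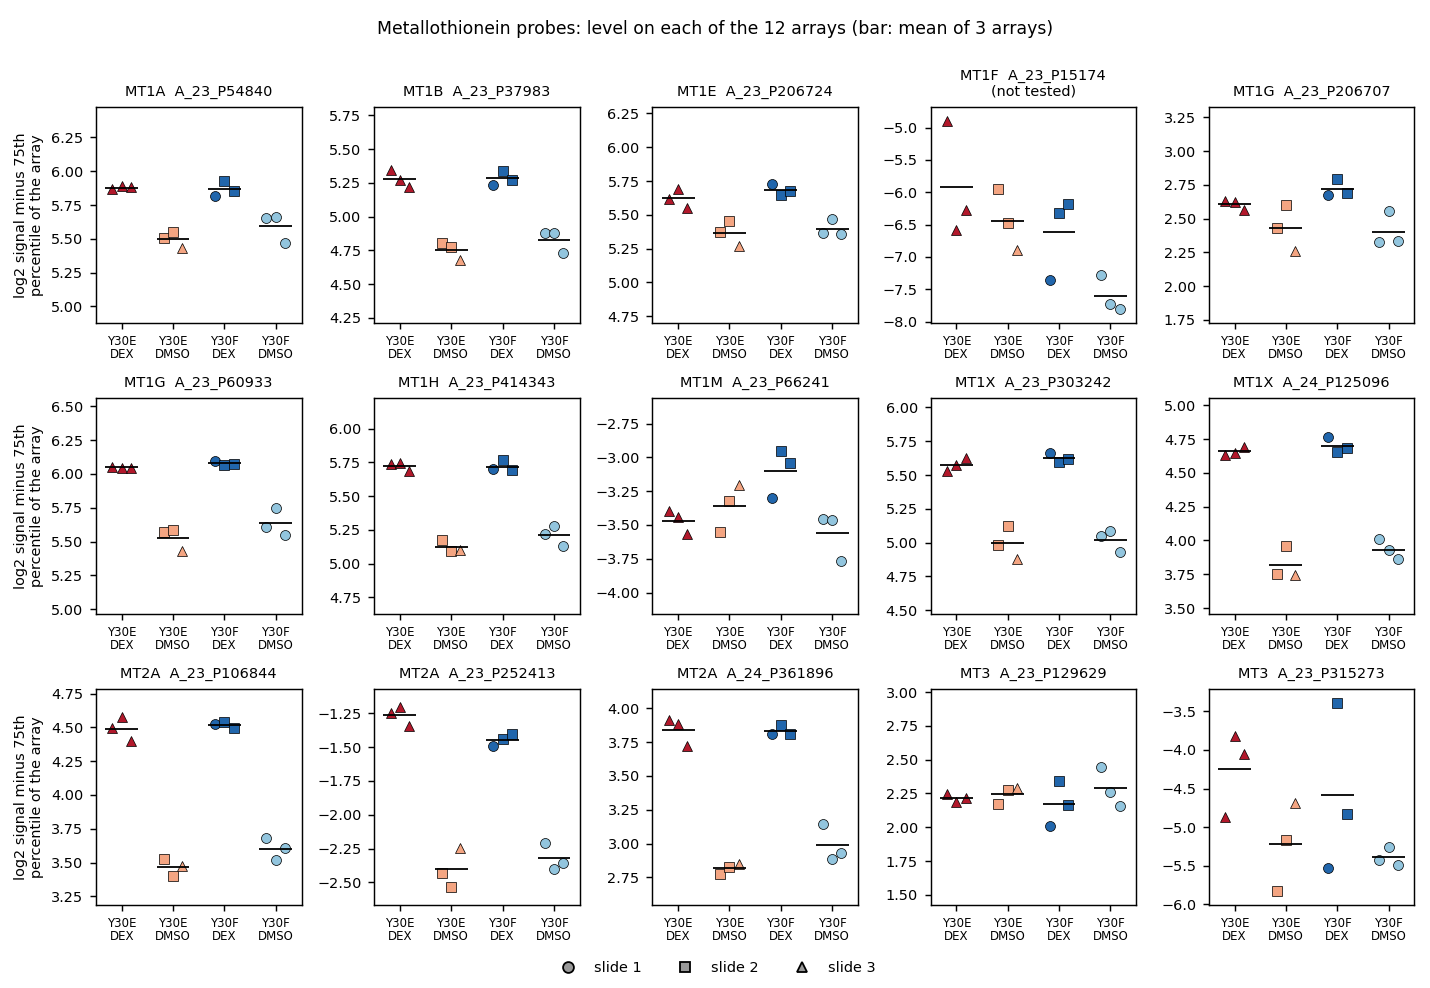
Level of the 15 metallothionein probes on each array (y axis: log2 signal minus the array's 75th percentile, each panel with its own range) by group (x axis), with bars for the mean of 3 arrays and marker shapes for the slide. The DEX arrays lie above the DMSO arrays of the same receptor for the induced probes, while the probes of MT1F, MT1M and MT3 and the MT1G probe A_23_P206707 overlap between groups in at least 1 receptor.

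MT2A, a broadly expressed metallothionein gene, had 3 probes, and each rose with both receptors, by 1.80-fold to 2.20-fold. On the probe A_23_P106844 the Y30E-DEX arrays read 4.50, 4.58 and 4.40, against 3.53, 3.40 and 3.48 on the Y30E-DMSO arrays. The Y30F-DEX arrays read 4.53, 4.54 and 4.49, against 3.68, 3.52 and 3.60 on the Y30F-DMSO arrays. The groups were far apart with both receptors, by 0.87 with Y30E and 0.81 with Y30F between the lowest DEX and the highest DMSO array. Scaled to a common 75th percentile, the mean signal was 18187 ± 1109 in Y30E-DEX and 8934 ± 397 in Y30E-DMSO (SD, n = 3 arrays each). It was 18534 ± 329 in Y30F-DEX and 9816 ± 566 in Y30F-DMSO. The effect was 1.02 ± 0.06 with Y30E (log2, SE; 2.03-fold; limma adjusted p = 2.05e-05) and 0.92 ± 0.06 with Y30F (1.89-fold; adjusted p = 5.23e-05). Among all 25570 probes its effect ranked 13 by p-value with Y30E and 15 with Y30F.

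The other MT2A probes gave like effects. The dim probe A_23_P252413 read -1.24, -1.20 and -1.35 in Y30E-DEX, against -2.43, -2.53 and -2.24 in Y30E-DMSO. In Y30F-DEX it read -1.49, -1.44 and -1.40, against -2.21, -2.40 and -2.36 in Y30F-DMSO. No DEX array came near a DMSO array, and the effects were 1.14 ± 0.08 with Y30E (2.20-fold; adjusted p = 6.97e-05) and 0.88 ± 0.08 with Y30F (1.84-fold; adjusted p = 3.64e-04). The size on this probe depended on the processing, from 0.87 to 1.22 with Y30E and from 0.66 to 0.94 with Y30F over the alternatives. On A_24_P361896 the levels were 3.91, 3.89 and 3.72 in Y30E-DEX, against 2.78, 2.82 and 2.85 in Y30E-DMSO. They were 3.81, 3.87 and 3.81 in Y30F-DEX, against 3.15, 2.88 and 2.93 in Y30F-DMSO. The groups did not overlap, and the effects were 1.02 ± 0.07 with Y30E (2.03-fold; adjusted p = 7.80e-05) and 0.84 ± 0.07 with Y30F (1.80-fold; adjusted p = 2.99e-04).

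MT1X, a zinc-inducible MT1 gene active in many tissues, rose on both of its probes, and A_24_P125096 had the largest effects among the 9 tested probes of MT1 genes. On that probe the Y30E-DEX arrays read 4.63, 4.65 and 4.69, against 3.75, 3.96 and 3.75 on the Y30E-DMSO arrays. The Y30F-DEX arrays read 4.77, 4.66 and 4.68, against 4.01, 3.93 and 3.86 on the Y30F-DMSO arrays. The groups lay apart with each receptor, and the effects were 0.84 ± 0.07 with Y30E (1.79-fold; adjusted p = 1.62e-04) and 0.77 ± 0.07 with Y30F (1.70-fold; adjusted p = 2.99e-04). The second probe, A_23_P303242, read 5.53, 5.57 and 5.63 in Y30E-DEX, against 4.98, 5.12 and 4.88 in Y30E-DMSO. It read 5.66, 5.59 and 5.62 in Y30F-DEX, against 5.05, 5.09 and 4.93 in Y30F-DMSO. It too rose with both receptors, by 0.58 ± 0.07 with Y30E (1.50-fold; adjusted p = 0.00139) and by 0.60 ± 0.07 with Y30F (1.52-fold; adjusted p = 0.00119). The sizes from the MT1X probes differed by more than their standard errors.

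MT1H, MT1B and 1 of the 2 probes of MT1G, further metal-binding members of the MT1 group, rose by about 0.5 (log2). MT1H had levels of 5.73, 5.75 and 5.69 in Y30E-DEX, against 5.17, 5.09 and 5.10 in Y30E-DMSO. In Y30F-DEX MT1H had 5.70, 5.76 and 5.69, against 5.22, 5.28 and 5.13 in Y30F-DMSO. The MT1H arrays were tightly grouped, and the effects were 0.60 ± 0.05 with Y30E (1.52-fold; adjusted p = 2.32e-04) and 0.51 ± 0.05 with Y30F (1.42-fold; adjusted p = 6.52e-04). MT1B read 5.34, 5.27 and 5.22 in Y30E-DEX, against 4.81, 4.78 and 4.68 in Y30E-DMSO. In Y30F-DEX MT1B read 5.24, 5.34 and 5.27, against 4.88, 4.88 and 4.73 in Y30F-DMSO. Again no array of a DEX group lay within the DMSO range, and the effects were 0.52 ± 0.06 with Y30E (1.43-fold; adjusted p = 0.00148) and 0.46 ± 0.06 with Y30F (1.37-fold; adjusted p = 0.00362).

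The MT1G probe A_23_P60933 read 6.05, 6.05 and 6.05 in Y30E-DEX, against 5.57, 5.58 and 5.43 in Y30E-DMSO. In Y30F-DEX it read 6.10, 6.07 and 6.07, against 5.61, 5.75 and 5.55 in Y30F-DMSO. The 3 Y30E-DEX arrays differed among themselves by less than the DMSO arrays did, and the effects were 0.52 ± 0.06 with Y30E (1.43-fold; adjusted p = 0.00139) and 0.44 ± 0.06 with Y30F (1.36-fold; adjusted p = 0.00401). The other MT1G probe, A_23_P206707, ranged from 2.56 to 2.63 in Y30E-DEX and from 2.26 to 2.60 in Y30E-DMSO, and these ranges overlapped. It ranged from 2.67 to 2.79 in Y30F-DEX and from 2.32 to 2.55 in Y30F-DMSO, without overlap. Its effects, 0.17 ± 0.09 with Y30E and 0.32 ± 0.09 with Y30F, did not pass (adjusted p = 0.422 and 0.145), so the record's probes disagree on the call. In the Y30F effect MT1B and A_23_P60933 also did not pass with the median of each array in place of the 75th percentile (adjusted p = 0.0603 and 0.0964) or with the Y30F arrays alone (adjusted p = 0.0592 and 0.0692).

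MT1A and MT1E had the smallest effects among the induced probes. MT1A read 5.87, 5.89 and 5.88 in Y30E-DEX, against 5.51, 5.55 and 5.43 in Y30E-DMSO. In Y30F-DEX it read 5.82, 5.93 and 5.86, against 5.65, 5.66 and 5.47 in Y30F-DMSO. MT1A did not overlap between treatments with either receptor, and rose with Y30E by 0.38 ± 0.06 (1.30-fold; adjusted p = 0.0103). With Y30F its effect was 0.27 ± 0.06 (1.21-fold; adjusted p = 0.0621), which did not pass. It passed in 3 alternatives: normexp background correction (adjusted p = 0.0369), another prior (0.0212) and without Y30F-DEX replicate 1 (0.0405). Without that array the Y30F-DEX arrays were all on slide 2 and the Y30F-DMSO arrays on slide 1, and 1488 of all probes passed. With slide as a block in the fit of all arrays the MT1A effect was 0.22 (adjusted p = 0.439). MT1E read 5.62, 5.69 and 5.55 in Y30E-DEX, against 5.37, 5.46 and 5.27 in Y30E-DMSO. In Y30F-DEX MT1E read 5.73, 5.65 and 5.68, against 5.36, 5.47 and 5.36 in Y30F-DMSO. All MT1E arrays of a DEX group lay above those of its DMSO group. Its effects of 0.25 ± 0.06 with Y30E and 0.29 ± 0.06 with Y30F missed the threshold singly (adjusted p = 0.0786 and 0.0505). They passed in some alternatives, 2 for Y30E and 6 for Y30F, among them quantile normalization (adjusted p = 0.0380 and 0.0264). Averaged over both receptors MT1E rose by 0.27 ± 0.04 (1.21-fold; adjusted p = 0.00574). With the median of each array as the scale that average effect was 0.23, with adjusted p = 0.103.

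**Figure D2:**
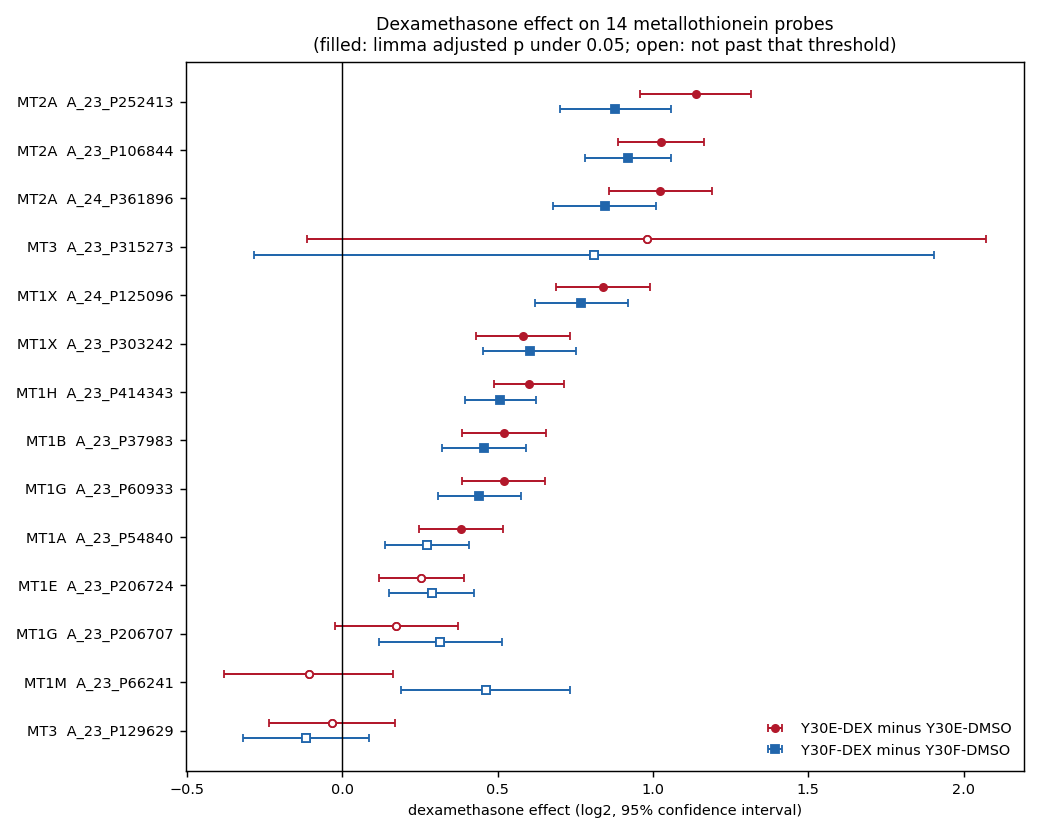
Effect of dexamethasone on the 14 tested metallothionein probes (x axis: log2, with 95% confidence intervals), in Y30E (circles) and Y30F (squares), in order of the average effect. Filled markers passed the limma threshold. The 3 MT2A probes lie between 0.84 and 1.14, the other induced probes between 0.25 and 0.84, and the MT3 probe A_23_P315273 has intervals from below 0 to about 2.

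The remaining tested probes were those of MT1M, a liver-enriched MT1 gene, and MT3, and none passed in any of the dexamethasone comparisons. MT1M was dim. Its level ranged from -3.57 to -3.40 in Y30E-DEX and from -3.55 to -3.20 in Y30E-DMSO, and these overlapped. It ranged from -3.30 to -2.95 in Y30F-DEX and from -3.77 to -3.45 in Y30F-DMSO, without overlap. Its effect was -0.11 ± 0.12 with Y30E (adjusted p = 0.750) and 0.46 ± 0.12 with Y30F (adjusted p = 0.118). Without Y30F-DEX replicate 1, the lowest array of its group and the only one of it on slide 1, the Y30F effect was 0.56 and passed (adjusted p = 0.0284).

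For MT3 the brighter probe, A_23_P129629, ranged from 2.19 to 2.24 in Y30E-DEX and from 2.17 to 2.29 in Y30E-DMSO. It ranged from 2.01 to 2.34 in Y30F-DEX and from 2.16 to 2.44 in Y30F-DMSO. The treatments overlapped with both receptors. The effects were -0.03 with Y30E (95% interval -0.23 to 0.17) and -0.12 with Y30F (-0.32 to 0.08), so intervals of this width leave room for a change of up to 0.17 upwards and 0.32 downwards. The dim probe A_23_P315273 was well above background on 3 Y30E-DEX, 2 Y30E-DMSO, 2 Y30F-DEX and 1 Y30F-DMSO arrays. Its effects of 0.98 ± 0.49 with Y30E and 0.81 ± 0.49 with Y30F did not pass (adjusted p = 0.412 and 0.534). In Y30F-DEX it read -5.54 on slide 1, and -3.39 and -4.83 on slide 2. The MT1F probe, A_23_P15174, was well above background on 1 of 12 arrays, Y30E-DEX replicate 1, where its scaled signal was 27.2. On the other 11 arrays its scaled signal lay between 3.62 and 13.0, so no effect is given for MT1F.

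The order of the effects was alike with both receptors. Across the 14 probes, the Y30E and Y30F effects had a Pearson correlation of 0.88 and a Spearman correlation of 0.88, and across the 10 induced probes these were 0.97 and 0.96. These are descriptions over probes that share arrays and may share transcripts. The 14 include the dim MT3 probe A_23_P315273, which met the filter through the Y30E-DEX arrays alone. Its effects of 0.98 ± 0.49 with Y30E and 0.81 ± 0.49 with Y30F enter the correlations over 14 probes, which were not computed without it. The 10 were chosen by their average effect over both receptors in the same arrays, so their higher correlations are partly set by that choice. The signal of very bright spots was taken from a second scan at low gain, which was the case on all 12 arrays for 5 of the 14 probes. All 5 were induced, with average effects of 0.27 to 0.59. The 3 probes with low-gain values on some arrays had average effects of 0.49 to 0.97, and the 6 with none had -0.08 to 1.01. Of those 3, MT1B had such values on 11 arrays, and MT1X A_24_P125096 and MT2A A_23_P106844 on 2 each. For these probes the scan gain therefore differed among the 12 arrays. The part of brightness or of scan gain in these sizes was not tested.

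A direct test of whether the metallothionein response differed between the mutants subtracted the effect in Y30F from that in Y30E. None of the 14 probes passed (limma, 0 of 14 and 0% of all 25570 probes). At an unadjusted p under 0.05 there were 2 of the 14, and 2777 of all probes. For the induced probes, which were chosen by their average effect, the difference ran from -0.03 to 0.26 and was above 0 for 8 of 10. Their 95% intervals spanned -0.23 to 0.51 in all. Taken as folds in either direction, 8 of 10 intervals stayed within 1.25 and 10 of 10 within 1.5. These intervals are from the fit without slide, and the share of all probes within these folds was not computed. With slide as a block MT1A had effects of 0.45 with Y30E and 0.22 with Y30F, against 0.38 and 0.27 without it. For MT2A A_23_P252413 they were 0.98 and 0.83, against 1.14 and 0.88. Effects with the block rest on a single Y30E-DMSO or Y30F-DEX array, and their intervals are not given here. For the MT2A probe A_23_P106844 the difference was 0.11 (-0.09 to 0.30). The MT2A probe A_23_P252413 had 0.26 (0.0045 to 0.51; unadjusted p = 0.0467, adjusted p = 0.450). With the median of each array as the scale the median difference of all probes was 0.16, and that of the 14 probes was 0.26.

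MT1M had the difference farthest from 0 among the 14 probes, -0.57 ± 0.17 (95% interval -0.95 to -0.19; unadjusted p = 0.00784). It did not pass over all probes (adjusted p = 0.331). It passed without Y30F-DEX replicate 1 (-0.67; adjusted p = 0.0484), a setting under which 1262 of all probes passed. In Y30F-DEX MT1M was 0.31 higher on slide 2 than on slide 1, and in Y30E-DMSO it was 0.23 lower on slide 2 than on slide 3.

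**Figure D3:**
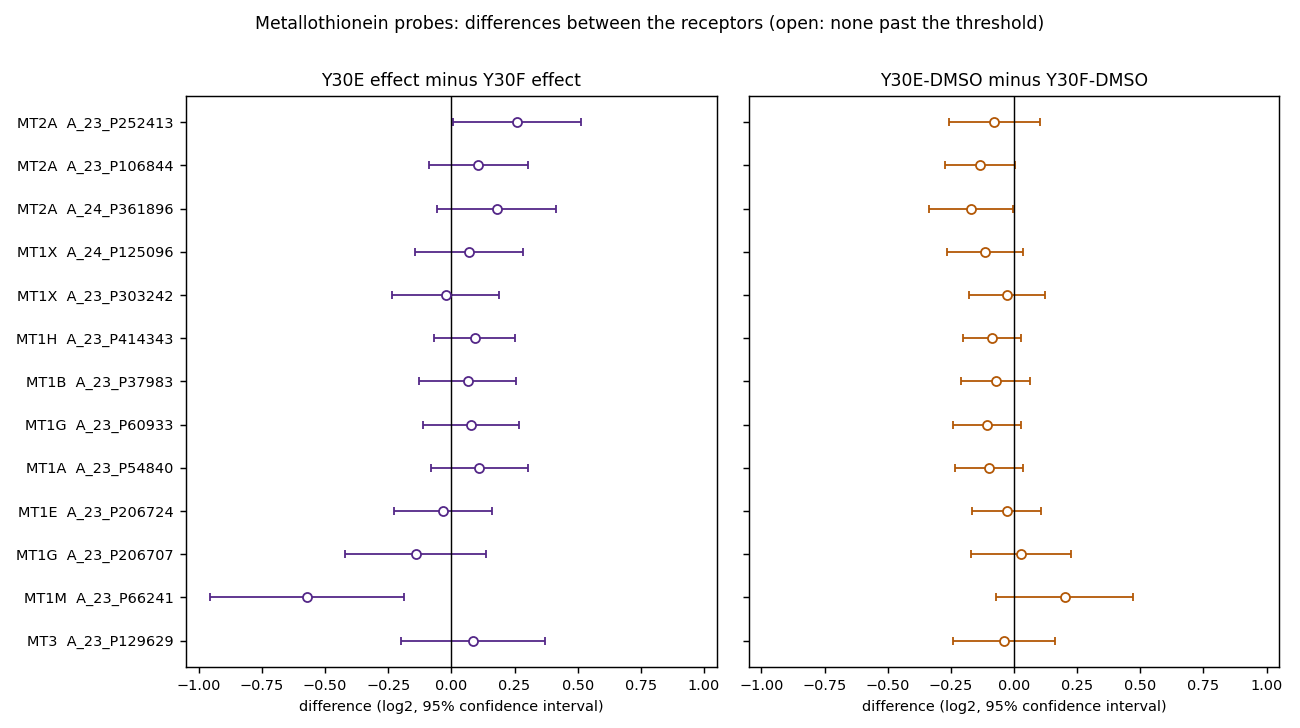
Differences between the receptors for 13 metallothionein probes (x axes: log2, with 95% confidence intervals): the effect of dexamethasone in Y30E minus that in Y30F on the left, and Y30E-DMSO minus Y30F-DMSO on the right. No probe passed the threshold in either. MT1M, at -0.57, lies farthest from 0 on the left. The MT3 probe A_23_P315273, with differences of 0.17 in both and intervals beyond the axis, is not drawn.

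A further comparison set Y30E against Y30F within each treatment. No slide held both groups of either comparison, so these differences were taken between slides. Under dexamethasone 0 of 14 probes passed (limma, 0% of all probes), with 2 of the 14 and 3460 of all probes at an unadjusted p under 0.05. For the induced probes Y30E minus Y30F ran there from -0.06 to 0.18, below 0 for 6 and above 0 for 4 of 10. When slide was added to the fit as a block, 3 were below 0 and 7 above, from -0.08 to 0.14. The 2 probes with an unadjusted p under 0.05 were MT1M (-0.37 ± 0.12; adjusted p = 0.270) and the MT2A probe A_23_P252413 (0.18 ± 0.08; adjusted p = 0.368).

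Under DMSO 0 of 14 probes passed (limma, 0.00782% of all probes passed), with 1 of the 14 and 3342 of all probes at an unadjusted p under 0.05. For all 10 induced probes Y30E-DMSO minus Y30F-DMSO was below 0, from -0.17 to -0.03, and none passed. The 1 probe was MT2A A_24_P361896, at -0.17 ± 0.07 (unadjusted p = 0.0442, adjusted p = 0.372). The 10 differences share the same 6 arrays and are not independent of each other. With slide as a block 7 of 10 were below 0, from -0.23 to 0.09. With the median of each array as the scale they ran from -0.36 to -0.21, where the median over all probes was -0.17, and 2 of the 14 probes and 1447 of all probes passed.

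Groups were spread unevenly over 3 slides. All Y30E-DEX arrays shared slide 3 with Y30E-DMSO replicate 3. All Y30F-DMSO arrays shared slide 1 with Y30F-DEX replicate 1. The remaining Y30E-DMSO and Y30F-DEX arrays, 2 of each, were on slide 2. The induced probes kept effects above 0 within a slide, and the sizes moved more for some probes than for others. With Y30E, MT1E had 0.35 within slide 3 against 0.25 over all arrays, and MT1X A_23_P303242 had 0.70 against 0.58. With Y30F, MT1A had 0.22 within slide 1 against 0.27 over all arrays. The arrays of the slide are also part of the effects over all arrays, so the 2 readings are not independent. Within slide 3, MT2A A_23_P106844 had a Y30E effect of 1.02, MT1X A_24_P125096 had 0.91 and MT1H had 0.62. Within slide 1 the Y30F effects of these probes were 0.92, 0.83 and 0.49. Each of these values rests on a single Y30E-DMSO or Y30F-DEX array, and none of the 14 probes passed on the arrays of 1 slide alone. With slide as a block in the fit of all arrays, which gives the same sizes, 8 of 14 probes rose with Y30E and 6 of 14 with Y30F. The calls that ended were those of MT1A with Y30E (adjusted p = 0.0653), and of MT1B and MT1G A_23_P60933 with Y30F (adjusted p = 0.105 and 0.0603).

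Of the 14 probes, MT3 A_23_P315273 moved furthest. Its Y30F effect was -0.14 within slide 1, against 0.81 over all arrays. Within slide 3 the Y30E effect was 0.44, against 0.98 over all arrays. MT1M had a Y30F effect of 0.26 within slide 1, against 0.46 over all arrays. Its Y30E effect was -0.26 within slide 3, against -0.11 over all arrays, a move like that of the MT2A probe A_23_P252413 (0.98 within slide 3, against 1.14). The MT1G probe A_23_P206707 had a Y30E effect of 0.34 within slide 3, against 0.17 over all arrays. For MT3 A_23_P129629 the Y30F effect was -0.28 within slide 1, against -0.12 over all arrays. For the induced probes, slide 2 minus slide 1 in Y30F-DEX ran from -0.10 to 0.07, and slide 2 minus slide 3 in Y30E-DMSO from -0.24 to 0.17.

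**Figure D4:**
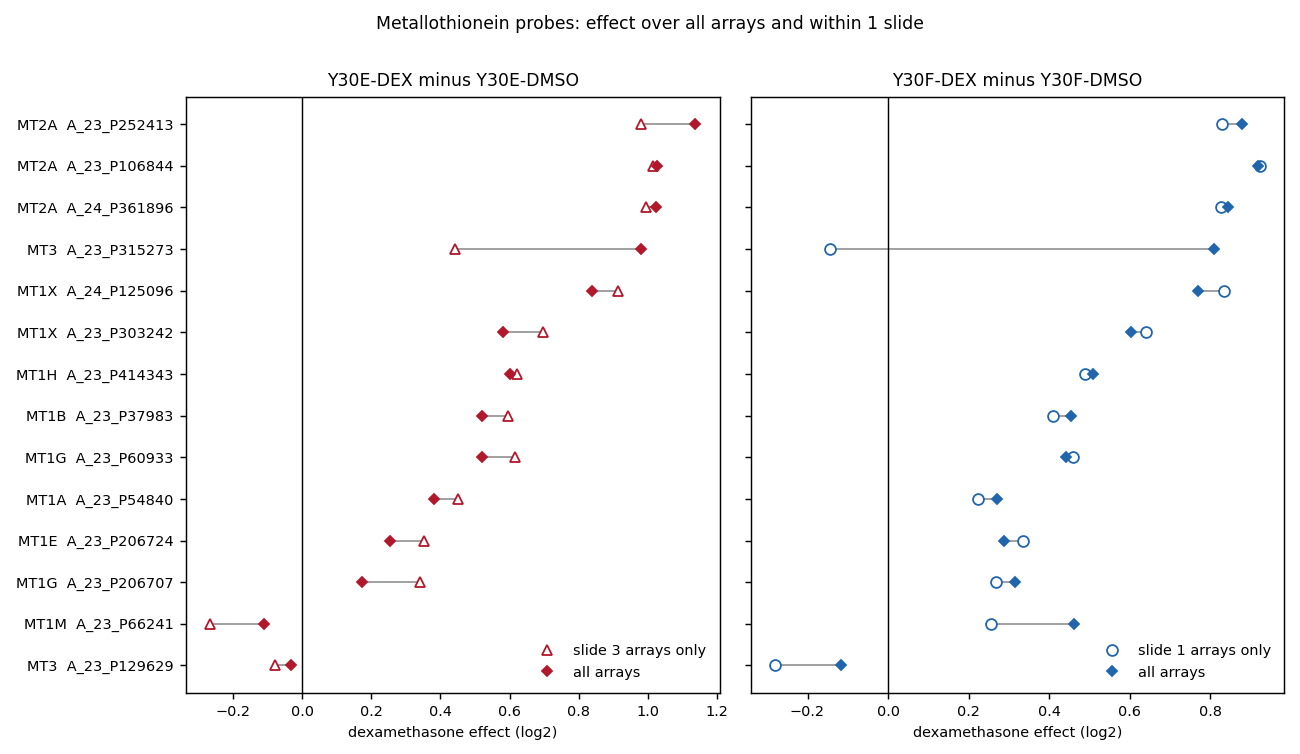
Effect of dexamethasone on the 14 tested metallothionein probes (x axes: log2) over all arrays (filled) and on the arrays of 1 slide (open), for Y30E with slide 3 on the left and Y30F with slide 1 on the right. The open and filled markers of the induced probes all lie above 0. On the right, the MT3 probe A_23_P315273 lies at 0.81 over all arrays and at -0.14 within slide 1.

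The pattern of MT2A over the 12 arrays was set against every other tested probe by Pearson correlation with A_23_P106844. Its own second probe A_24_P361896 had a correlation of 0.99, MT1H had 0.99, the other induced probes had 0.90 to 0.98, and MT1M had 0.38. The MT3 probe A_23_P129629 had -0.33. Among transcripts outside the list the nearest were NM_007113 (probe A_32_P98072) and BC037919 (probe A_32_P47538), both with a correlation of 0.99. The NM_007113 probe had effects of 1.46 with Y30E and 1.20 with Y30F, and the BC037919 probe had 0.58 and 0.51. Set among the probes outside the list, MT1H ranked 3 by this correlation, MT1A 129 and MT1E 213. These correlations are descriptions, since all probes share the arrays and the treatment groups. A_23_P106844 was chosen as the member with the smallest p for the average dexamethasone effect. The induced probes were chosen by that effect on the same arrays, so their high correlations are partly set by these choices.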

How the data were processed

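Cy3-labelled RNA of 12 COS-1 samples was hybridised to Agilent whole human genome 4x44 arrays, with a single sample on each, as the labels' protocols state. The deposited spot intensity is, per the file headers, the processed signal of Agilent Feature Extraction 12.0.0.7, from which background was subtracted array by array, with no scaling across arrays. The other deposited columns used were spot flags (well above background, outlier, saturated, low-gain scan), which hold 0 or 1, per the file headers. Values of the series table equalled the scanner files' for every spot. Groups follow the titles and descriptions, which name both constructs in each sample, although a further label names only 1 construct per mutant.

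Control spots (1639 of 45015) and outlier spots were dropped, repeated spots averaged, and each array's 75th percentile subtracted from log2 intensity. Probes were kept where at least 0.5 of their spots were flagged well above background on every array of 1 group or more. limma 3.58.1 in R 4.3.3 fitted 4 group means over 12 arrays, leaving 8 residual degrees of freedom, and p-values were adjusted by Benjamini-Hochberg over 25570 probes. The alternatives were other scalings, normexp (offset 50, on the median signal, since the mean signal was not used here), other filters, 1 probe per record, slide or replicate number as a block (statmod 1.5.0 for the random block), fewer arrays and another prior. Simulated data of 25521 probes had independent normal noise, no slide or array shifts, and 100 probes changed by each of 2 sizes. There the Y30E effect test recovered 53% of log2 changes of 0.5 and 84% of those of 1. The Y30F effect test recovered 52% and 89%, and false calls made up 6.80% and 6% of calls. Shifts shared by probes or slides, which the real arrays can have, were not simulated, so these shares may not hold for them.

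All probes of the 10 records are reported, by rule. Symbols of the members came with the list. The files used here hold record IDs and no gene names, so other lists of zinc transport, stress and glucocorticoid target genes were not used here, COS-1 markers were not checked, and no sequence or position is given. The members and lists were chosen with earlier results of these data known.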

Additional observations from a re-analysis of the deposited data

How the results depend on the processing

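The count of metallothionein probes that rose (9 with Y30E, 8 with Y30F, 10 on average) moved by over 1.5 times only when slides were left out. On slide 3 alone 0 passed with Y30E, and on slide 1 alone 0 passed with Y30F, where a group has a single array. Without slide 2 the counts were 5 with Y30E, 2 with Y30F and 8 on average, where MT1A and MT1E did not pass (adjusted p = 0.116 and 0.0888). Leaving out each array in turn gave 9 to 9 with Y30E, 8 to 10 with Y30F, 10 to 11 on average, 0 to 1 for the difference (1 without Y30F-DEX replicate 1), 0 to 0 under dexamethasone and 0 to 0 under DMSO. Over all probes the count without 1 array ran from 220 to 667 with Y30E (506 with all arrays) and from 252 to 1488 with Y30F (421 with all arrays), the highest without Y30E-DMSO replicate 3 and without Y30F-DEX replicate 1. Under DMSO, 2 probes passed with the median of each array as the scale. With that scale the all-probe median was -0.11 in the Y30F effect and -0.17 under DMSO, against 0.019 and 0.017 as reported. The share of higher calls among all probes called in Y30F was then 46.1%, against 63.1% with quantile normalization and 77.2% as reported. Deviations from the group means had correlations of -0.13 to 0.10 between arrays of the same replicate number. Most such arrays lay on different slides, so these values cannot decide whether the numbers pair them. With the replicate block 9 probes rose with Y30E, 8 with Y30F and 11 on average, the added one being MT1G A_23_P206707 (adjusted p = 0.0333). Signs turned only for values that did not pass. MT3 A_23_P129629 turned to 0.0198 with Y30E under the median scale. MT3 A_23_P315273 turned to -0.14 with Y30F with slide as a block, on slide 1 alone and without slide 2, and MT1M to -0.0041 on average with the block and without slide 2. In the difference, the median scale gave 0.147 for MT1E, 0.0387 for MT1G A_23_P206707 and 0.159 for MT1X A_23_P303242, and the block and leaving out slide 2 gave 0.0168, 0.0745 and 0.0543. Normexp gave -0.0225 for MT3 A_23_P315273. Without 1 array in turn, the difference ran from -0.0830 to 0.0115 for MT1E, from -0.0786 to 0.0418 for MT1X A_23_P303242 and from -0.306 to 0.769 for MT3 A_23_P315273. The cause of these moves was not tested. No single slide holds all groups of the average, of the difference or of a comparison between receptors. With the block, the average and the difference combine the Y30E effect within slide 3 and the Y30F effect within slide 1. The comparisons between receptors within a treatment have no within-slide value.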

Other observations

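In 3 of the 4 groups, 1 array was the lowest for most of the 10 induced metallothionein probes. In Y30E-DEX, replicate 3 was the lowest array for 6 of the 10 probes. In Y30E-DMSO replicate 3, the only array of that group on slide 3, was the lowest for 6. Among the Y30F-DMSO arrays, replicate 3 was lowest for 7 of the 10 probes and highest for 0. In Y30F-DEX replicates 1, 2 and 3 were lowest for 3, 4 and 3 probes. These counts are given as values, with no test.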
